A study of Mus musculus with 10 samples.

Results

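The regions described here are the PRDM16 ChIP-Seq peaks that lay inside exons but away from promoters. A peak was included when it was shorter than 1000 bp, when its centre was more than 2000 bp from every transcription start site (TSS) of the curated RefSeq transcripts of GRCm38, and when that centre fell in an exon of such a transcript. Of the 11271 peaks of the PRDM16 library, 293 met this rule (2.60%, with an exact Clopper-Pearson 95% interval of 2.31% to 2.91%), in 277 genes. Shares below carry the same kind of interval in parentheses. The remaining peaks under 1000 bp were 6193 in promoters, 1867 in introns, 2076 between genes and 13 on contigs not placed on a chromosome.

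The peaks came from primary vascular fibroblasts of wild type mice that had 48 hours of infection with a Flag-PRDM16 lentivirus and then 1 week in puromycin at 2 μg/mL, before chromatin immunoprecipitation with anti-Flag antibody. A second anti-Flag library came from fibroblasts given the vector alone, and it held 67 peaks. Each condition had 1 library, so no value of a peak has a replicate and no test between conditions was possible. RNA-Seq of thoracic aortas from 3 control mice (Prdm16f/f) and 3 Prdm16SMKO mice (Prdm16f/f with SMMHC-CreERT2, a tamoxifen-inducible Cre driven by the smooth muscle myosin heavy chain promoter) gave the expression of the genes that host the peaks. By these labels both aorta groups carried the floxed Prdm16 allele, and they differed by the Cre transgene and the recombination it induces in smooth muscle. The study's methods name floxed mice and also mice with this Cre as controls, without saying which gave the RNA-Seq. In the expression values the controls are named WT. The study's methods describe the knockouts made with this Cre as male, give C57BL/6J as the background, and state that tamoxifen was used to induce the deletion. The peaks thus describe an overexpressed, tagged protein in fibroblasts, and the expression values a whole vessel wall. No expression values of the fibroblasts were used here, so their cell type could not be checked against markers.

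PRDM16 is a zinc finger protein with a PR/SET domain. It is known for promoting brown and beige fat identity, and it acts on chromatin together with corepressors and methyltransferases. Exons away from promoters are transcribed sequence that mostly encodes protein, and they differ from promoters in having few CpG dinucleotides and no core promoter. A peak in such an exon can lie on an annotated coding segment, on an untranslated region (UTR) or on the exon of a noncoding RNA.

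The sequences at the summits of the strongest coding members give a view of what these sites look like. The windows below are the 101 bp centred on the summit for the 6 members of highest fold enrichment whose window lay wholly in coding sequence and in no UTR. They were read from GRCm38.p6, and CpG dinucleotides are in capitals.
Trim14, chr4:46507204-46507304, plus strand: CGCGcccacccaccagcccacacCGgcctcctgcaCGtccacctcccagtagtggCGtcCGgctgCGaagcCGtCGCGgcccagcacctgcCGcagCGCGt
Tnxb, chr17:34685625-34685725, plus strand: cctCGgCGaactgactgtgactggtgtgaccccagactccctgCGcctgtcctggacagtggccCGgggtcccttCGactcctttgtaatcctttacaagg
Amotl2, chr9:102720221-102720321, plus strand: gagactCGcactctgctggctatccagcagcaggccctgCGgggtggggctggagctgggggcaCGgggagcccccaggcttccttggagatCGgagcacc
Msl3l2, chr10:56115211-56115311, plus strand: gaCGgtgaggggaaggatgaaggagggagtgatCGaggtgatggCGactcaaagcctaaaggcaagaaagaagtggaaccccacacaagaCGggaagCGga
Ccdc92b, chr11:74638353-74638453, plus strand: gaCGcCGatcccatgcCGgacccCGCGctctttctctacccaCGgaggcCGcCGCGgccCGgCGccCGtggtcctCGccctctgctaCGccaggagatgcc
Ctnnd2, chr15:30646951-30647051, plus strand: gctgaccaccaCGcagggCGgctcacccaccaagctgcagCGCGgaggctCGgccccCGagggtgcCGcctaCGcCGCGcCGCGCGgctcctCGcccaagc
The windows in Ccdc92b and Ctnnd2 each held 14 CpG dinucleotides and that in Trim14 held 13, whereas those in Tnxb and Msl3l2 held 5 and that in Amotl2 held 4. Their GC content ran from 55.5% in Msl3l2 to 78.2% in Ctnnd2. The Trim14, Msl3l2 and Ccdc92b windows lay in the last exon of their gene (exon 6 of 6, 2 of 2 and 4 of 4), and the Tnxb, Amotl2 and Ctnnd2 windows in internal exons (8 of 33, 2 of 10 and 7 of 22).

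The depth behind the peaks could be worked out from the deposited values. MACS2 gives the fold enrichment as the number of fragments at the summit plus 1 over the local background plus 1, and its p-value as a Poisson tail of the same numbers. Solving both for a whole number of fragments gave back the deposited −log10 p within 0.001 for 11269 of the 11271 peaks (99.98%) and for 293 of 293 exonic peaks. The exonic peaks had a median of 14 fragments at the summit (range 9 to 52, quartiles 12 and 17). An exact Poisson 95% interval for 14 fragments runs from 7.65 to 23.5, which covers counting error only. The background was the genome-wide value of 1.84 fragments at 181 exonic peaks (61.8%), and it was higher at the others. Since fold enrichments are ratios of such small counts, the 293 peaks took only 95 distinct values, and neighbours in a ranking differed by less than counting error.

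The exonic peaks had the same median strength as peaks in introns and between genes. The median fold enrichment was 4.92 in the exonic peaks (quartiles 4.22 and 6.01, range 2.25 to 18.6). It was 4.92 in introns and 4.92 between genes, and 5.27 in promoters. The median number of fragments was 14 in exons, introns and between genes and 15 in promoters. A fold enrichment of at least 7 was reached by 37 exonic peaks (12.6%), 11.6% of intron peaks, 14.4% of peaks between genes and 16.7% of promoter peaks. The median length was 360 bp in exons (range 224 to 982 bp), 334 bp in introns, 328 bp between genes and 407 bp in promoters.

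**Figure D1:**
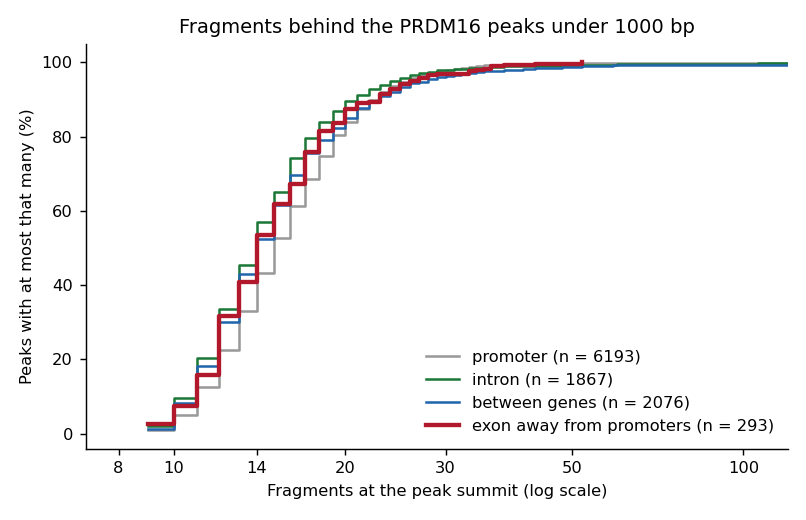
Cumulative share of peaks under 1000 bp (y axis, %) with at most a given number of fragments at the summit (x axis, log scale), for the 293 exonic peaks (red), 6193 promoter peaks, 1867 intron peaks and 2076 peaks between genes of the PRDM16 library. The exonic curve runs with the intron and intergenic curves, with a median of 14 fragments, and the promoter curve lies to their right, with a median of 15.

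Most of the exonic peaks were centred in coding sequence. There were 214 in coding sequence (73.0%, 67.6% to 78.0%), 50 in 3′ UTRs (17.1%, 12.9% to 21.9%), 21 in exons of noncoding RNAs (7.17%, 4.49% to 10.7%) and 8 in 5′ UTRs (2.73%, 1.19% to 5.31%). Of the 57.4 Mb of curated exon sequence more than 2000 bp from a TSS, 49.6% is coding, 42.0% is 3′ UTR, 7.45% is noncoding and 0.937% is 5′ UTR. Peaks thus occurred at 14.9 per Mb of 5′ UTR (exact Poisson 95% interval, 6.43 to 29.3, from 8 peaks), at 7.52 per Mb of coding sequence (6.55 to 8.60), at 2.08 per Mb of 3′ UTR (1.54 to 2.74) and at 4.91 per Mb of noncoding exon (3.04 to 7.51). Introns had 2.03 peaks per Mb (1.94 to 2.12), sequence between genes 1.26 (1.21 to 1.32) and promoters 59.4 (57.9 to 60.9). The density in coding sequence lay above, and its interval apart from, those of 3′ UTRs, introns and intergenic sequence, whereas the interval of 3′ UTRs contained the intron value. These intervals treat peaks of 1 library as counts and say nothing of the spread between libraries.

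**Figure D2:**
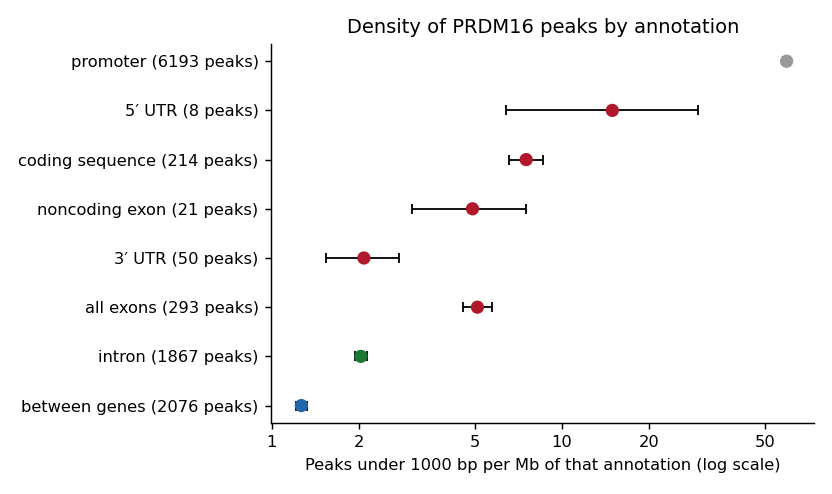
PRDM16 peaks under 1000 bp per Mb of each annotation (x axis, log scale), with exact Poisson 95% intervals as bars and the number of peaks in parentheses. Exon classes (red) exclude sequence within 2000 bp of a curated TSS. Coding sequence, at 7.52 peaks per Mb, lies between promoters at 59.4 and introns at 2.03.

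By position in the transcript, 145 exonic peaks lay in the last exon (49.5%, 43.6% to 55.4%), 143 in an internal exon, 2 in the first and 3 in genes with a single exon. Last exons make up 12.2% of the curated exons away from promoters but 57.6% of their bases, since they are long. In internal exons 90.9% of the peaks were in coding sequence (130 of 143) and in last exons 56.6% (82 of 145). The exons that held a peak had a median length of 901 bp, against 133 bp over all such exons and 1252 bp when each base of those exons is counted once. Exons over 1000 bp held 138 of the 293 peaks (47.1%) and exons of up to 100 bp held 8. A median of 88.8% of a peak's bases was exonic, 129 peaks (44.0%) lay wholly in exons, and the summit was in an exon for 243 (82.9%). At the other end, 37 peaks (12.6%) had fewer than 50% of their bases in exons.

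The distance to the nearest curated TSS had a median of 7312 bp (quartiles, 3423 and 17322 bp). In 102 peaks (34.8%) that nearest TSS belonged to another gene than the one whose exon held the peak. Closest to the lower limit on the inside were peaks in Sh3rf1 (2002 bp), Vgf (2029 bp) and Ccdc9b (2030 bp), with fold enrichments of 4.57, 4.46 and 7.74. Just outside it were exonic peaks in Unc13a (1984 bp), Gm16982 (1968 bp) and Zyx (1966 bp), with 3.72, 3.52 and 3.52. The longest members were in Carmn (982 bp), Hdac5 (969 bp) and Gas2l1 (961 bp), with fold enrichments of 5.98, 10.2 and 6.49, and the shortest exonic peaks left out for their length were in Thra (1015 bp), Nova2 (1033 bp) and Klhl35 (1052 bp), with 12.9, 6.33 and 6.31. The rule uses curated RefSeq starts only. Of the 293 peaks, 41 had a predicted RefSeq TSS within 2000 bp and 112 (38.2%, 32.6% to 44.1%) a TSS of GENCODE vM21, which holds many more transcript models. Of all curated exons away from promoters, 29.0% had a GENCODE TSS that near.

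The summits were rich in GC and, in many members, in CpG. In windows reaching 100 bp to either side of the summit the median GC content was 61.2% (quartiles, 55.2% and 67.7%), against 48.8% in windows centred on all 184278 curated exons away from promoters, 53.7% at intron peaks, 53.7% at peaks between genes and 69.7% at promoter peaks. The exon windows were taken at exon middles, 1 per exon, and with a median exon of 133 bp most reached past the exon. In long exons the middle need not lie in the part, coding or UTR, that held the members. The ratio of observed to expected CpG had a median of 0.51 in the exonic peaks, 0.30 in all such exons, 0.22 in intron peaks and 0.81 in promoter peaks. A GC content above 50% together with a CpG ratio above 0.6, the composition used to define CpG islands, was found in 123 exonic peaks (42.0%, 36.3% to 47.9%). It was found in 4.02% of all such exons, in 7.55% of intron peaks, 13.7% of peaks between genes and 76.6% of promoter peaks. Among the exonic peaks the share was 49.5% in coding sequence (106 of 214) and 18% in 3′ UTRs (9 of 50), against 4.53% and 1.03% of all exons of these kinds.

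**Figure D3:**
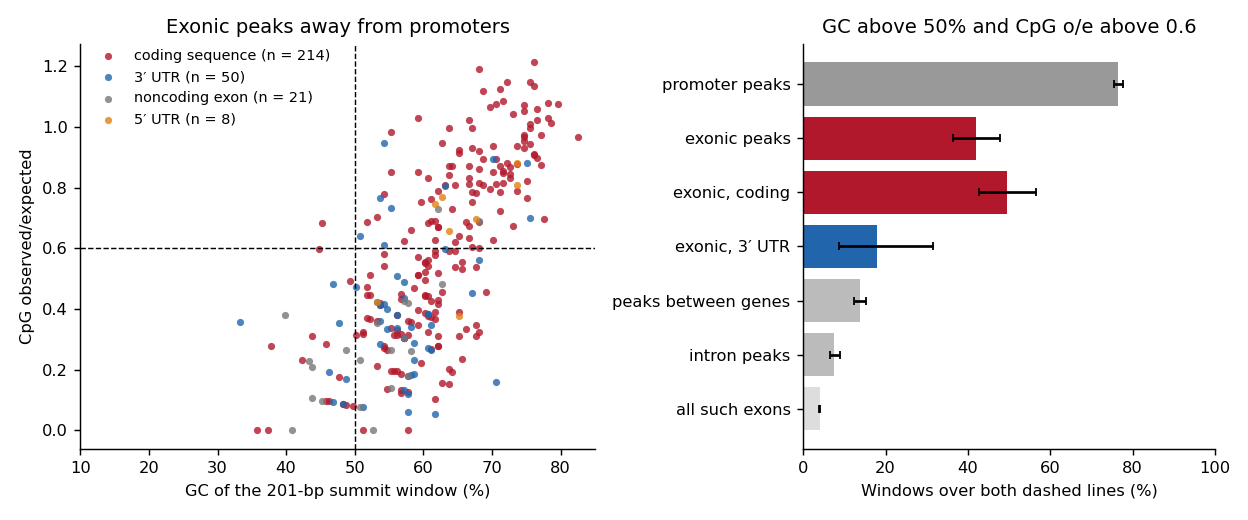
Left, GC content (x axis, %) and ratio of observed to expected CpG (y axis) of the summit window of each exonic peak, coloured by annotation, with dashed lines at 50% and 0.6. Right, the share of windows above both lines, with exact Clopper-Pearson 95% intervals. The exonic peaks, at 42.0%, lie between promoter peaks at 76.6% and intron peaks at 7.55%, and the coding members fill most of the upper right of the left panel.

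The CpG-rich composition was also present in members more than 2000 bp from predicted RefSeq and GENCODE starts. Starts absent from these annotations could not be examined. In the 170 exonic peaks more than 2000 bp from every RefSeq TSS, predicted ones included, and from every GENCODE TSS, 60 had it (35.3%, 28.1% to 43.0%), and in the 123 nearer to one of these starts 63 had it (51.2%, 42.1% to 60.3%). Over all curated exons more than 2000 bp from GENCODE starts too, the share was 3.66%. By distance from a curated TSS it was 47.6% between 2000 and 5000 bp (50 of 105), 46.7% between 5000 and 20000 bp (57 of 122) and 24.2% beyond 20000 bp (16 of 66, 14.5% to 36.4%). Intron peaks in the same ranges had it in 15.2%, 7.28% and 4.86%. In members of exons over 1000 bp the share was 44.9% (36.5% to 53.6%), against 2.51% of windows at the middle of all exons of that length. In members of exons from 101 to 300 bp it was 30.9% (21.1% to 42.1%), against 5.29% of such windows. Across the 293 peaks, which share 1 library, fold enrichment had a Pearson's r of 0.13 and a Spearman's coefficient of 0.12 with GC content, and of 0.34 and 0.41 with peak length. The part of GC-dependent recovery of fragments in these shares was not tested.

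Short motifs in the same windows differed in frequency between the classes of sequence. GGGCGG, the GC box bound by Sp1-type factors, was present on either strand in 71 of the 293 windows (24.2%), against 4.35% of all such exons, 11.5% of intron peaks and 47.5% of promoter peaks. AGATAA, the core of GATA sites, was present in 3 windows, those in Irak2 and Cpne7 among them, against 9.06% of all such exons and 8.03% of intron peaks. ACAAGATAA, a part of the site given for MECOM and PRDM16 that contains AGATAA, was present in 1 exonic peak, in Cpne7, and in 0.185% of all such exons and 14 of 1867 intron peaks. The E-box CATCTG was present in 14.3% of exonic peaks and 18.2% of all such exons, CACCTG in 20.8% and 20.8%, and CACGTG in 4.44% and 3.08%. TGANTCA, the AP-1 site, was present in 6 windows (2.05%), of which 1 was coding, against 4.93% of all such exons and 6.80% of intron peaks. CCAAT was present in 10.9% and 24.2%, CATTCC, a TEAD site, in 8.19% and 10.7%, CCGGAAG, an ETS site, in 3.07% and 1.99%, and AGGGGGCG, a part of the CTCF site, in 2.39% and 0.362%. TGACGTCA and GCGCATGC were present in 1 and 3 windows. A match is only a run of letters, and windows of 1 class share their base composition.

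The strongest exonic peak lay in Smyd4, a member of the SET and MYND domain family of lysine methyltransferases. The peak at chr11:75399522-75399878 had 52 fragments at its summit (exact Poisson 95% interval, 38.8 to 68.2), a fold enrichment of 18.6 that exceeded 99.8% of all peaks of the library, and a centre in the coding sequence of exon 6 of 11. It was 51.3% exonic, and no curated TSS lay within 22923 bp of its centre. Trim14, an adaptor of antiviral signalling, had a peak wholly inside its last coding exon at chr4:46507016-46507418, with 36 fragments (25.2 to 49.8) and a fold enrichment of 13.0. Tnxb, the extracellular matrix protein tenascin X, had a peak of 920 bp over exon 8 of 33 at chr17:34685338-34686257 with 34 fragments and a fold enrichment of 11.8. Only 31.6% of the bases of the Tnxb peak were exonic.

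In the Hoxa cluster, 2 members lay next to each other. The peak at chr6:52168436-52169175 in the last exon of the noncoding RNA Hoxaas2 had 38 fragments (26.9 to 52.2) and a fold enrichment of 13.7. The peak at chr6:52170001-52170874 in the coding sequence of exon 5 of 5 of Hoxa3, a homeobox transcription factor, had 27 fragments and a fold enrichment of 6.73. Hdac5, which encodes a class IIa histone deacetylase, had a peak at chr11:102224345-102225313 over a 5′ UTR exon with a fold enrichment of 10.2 and another over a further 5′ UTR exon at chr11:102218423-102218859 with 6.33, and it also had a promoter peak.

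The other 7 of the 12 highest fold enrichments lay within counting error of one another. They were in Prss36, a serine protease (9.84, 27 fragments), Amotl2, a member of the angiomotin family (9.49, 26 fragments), Synpo, the actin-associated synaptopodin (9.14, 25 fragments), Atpif1, an inhibitor of the mitochondrial ATP synthase (9.01, 29 fragments), and Msl3l2, Dclk2, a doublecortin-like kinase, and Irak2, a kinase of interleukin-1 receptor signalling (8.79 and 24 fragments each). The Synpo peak was in a 5′ UTR exon and the other 6 in coding sequence. Of these 12 peaks, those in Hoxaas2, Trim14, Msl3l2 and Dclk2 were wholly exonic, and those in Hoxaas2, Hdac5, Amotl2, Synpo and Dclk2 were in genes that also had a promoter peak.

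Prdm16 itself held an exonic peak, and it was the gene introduced into the cells. The peak at chr4:154528574-154528903 had 36 fragments (25.2 to 49.8) over a background of 3.71 and a fold enrichment of 7.86. It lay over coding exon 2, which runs from 154528582 to 154528931, and 97.6% of its bases were exonic. A second exonic peak, of 1332 bp and so outside the length limit, lay wholly inside exon 9 of 17 at chr4:154340770-154342101, with 62 fragments, a background of 4.49 and a fold enrichment of 11.5. It began 49 bp inside one edge of that 1417-bp exon and ended 36 bp inside the other. Exons 2 and 9 have the longest coding sequence of the 17, at 350 and 1417 bp, and the other 15 exons, with 37 to 234 coding bases each, held no peak. The gene also had 2 intron peaks with fold enrichments of 4.92 and 8.44, both at the genome-wide background. Since these cells carry the lentiviral PRDM16 sequence, fragments from that copy and from the exons of the endogenous gene cannot be told apart here. The vector library had no peak overlapping these, but its cells were not given the PRDM16 sequence, so this does not tell the sources apart.

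**Figure D4:**
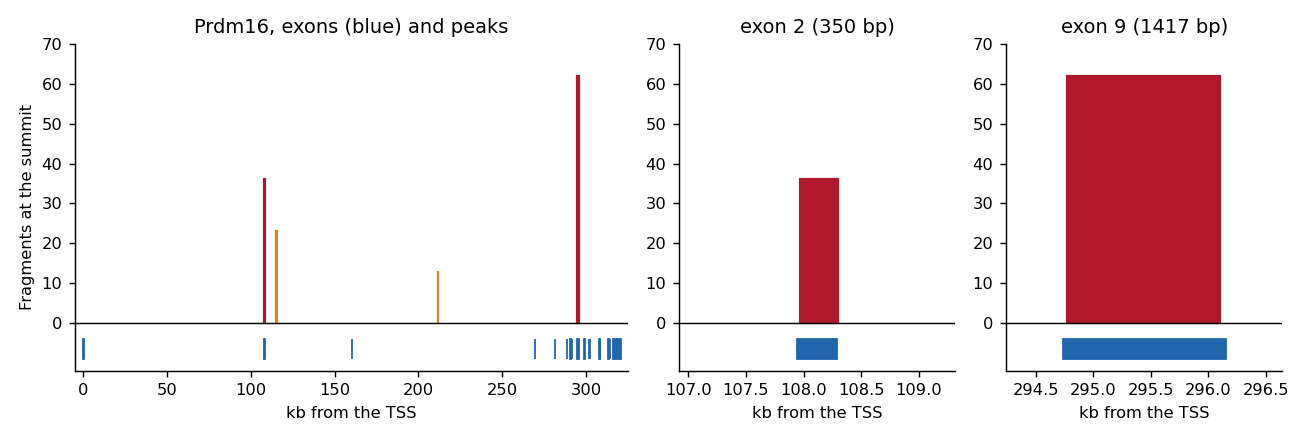
Exons of Prdm16 (blue blocks) and the PRDM16 peaks over the gene (red where exonic, orange where intronic), with distance from the TSS on the x axis (kb) and the number of fragments at the summit on the y axis. The right panels enlarge exons 2 and 9. The exonic peaks have 36 and 62 fragments and nearly the same extent as the exons they cover, whereas the intronic peaks have 23 and 13.

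The 3′ UTR members and those in noncoding RNAs were led by other genes. Apart from Hoxb8, the 3′ UTR peaks of highest fold enrichment were in Ccdc32 (7.75, 24 fragments), Golga7b (7.38), H13, which encodes signal peptide peptidase (7.22, 33 fragments), and Tlk2, a kinase of chromatin assembly (7.03). Edn1, the vasoconstrictor endothelin-1, had a 3′ UTR peak with 16 fragments (5.27). After Hoxaas2, the noncoding members were at 7.03 and below, and they included Carmn, a noncoding RNA known from smooth muscle (5.98, 16 fragments). The 5′ UTR members other than those of Hdac5 and Synpo were in Pam, an enzyme that amidates peptides (8.37, 26 fragments), Pcdh17, Prr7, Tmem121 and Psph. Only 2 of the 21 noncoding windows had the CpG-rich composition, against 6 of 8 in 5′ UTRs.

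In 16 genes 2 exonic peaks met the rule, and no gene had more. Both peaks lay in the same exon in 7 of these genes, namely Acoxl, Cavin1, H13, Jcad, Kbtbd11, Prdm13 and Vinac1, and their centres were less than 1000 bp apart in 9 of the 16. The pairs were both coding in 9 genes, which besides Cavin1, Jcad, Kbtbd11, Prdm13 and Vinac1 were Arhgef19, Kctd10, Lhx3 and Srrm3. Cavin1, a structural component of caveolae, had peaks with 14 and 17 fragments 530 bp apart in its last exon. Prdm13, another member of the PRDM family, had peaks with 11 and 13 fragments 974 bp apart, and Lhx3, a LIM homeobox factor of pituitary development, had peaks with 13 and 12 fragments 767 bp apart. Vgll4, a cofactor that binds TEAD factors, had one peak in coding exon 3 of 6 (fold enrichment, 7.38) and another 29027 bp away in its 3′ UTR (3.87). The members of Kank2, Prr7 and Synpo combined coding sequence with a UTR. Of the 16 genes, 11 also had a promoter peak. Whether neighbouring peaks share fragments was not tested.

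A promoter peak at the same gene accompanied 145 of the 293 exonic peaks (49.5%, 43.6% to 55.4%). Of intron peaks 65.9% (63.7% to 68.1%) lay in a gene with a promoter peak, and of all 26180 curated genes 26.0% had one. By distance from a TSS the share was 52.4% between 2000 and 5000 bp, 45.9% between 5000 and 20000 bp and 51.5% beyond 20000 bp. Another PRDM16 peak of any class was centred within 5000 bp of 104 exonic peaks (35.5%), against 33.2% of intron peaks, 29.1% of promoter peaks and 26.3% of peaks between genes. CpG-rich composition was present in 47.3% of the members without a promoter peak at their gene (39.0% to 55.7%) and in 36.6% of those with one (28.7% to 45.0%).

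By gene class, 10 of 225 homeobox and other developmental transcription factor genes had an exonic peak (4.44%), against 277 of all 26180 curated genes (1.06%). The strongest were Hoxb8 (fold enrichment, 7.73), Hoxa3 (6.73), Hoxb6 (5.98) and Foxa1 (5.27), and Lhx5, Foxo6, Lhx3, Tbx1, Meis1 and Sox9 were the others. The Hoxb8 and Hoxb6 peaks were in 3′ UTRs, and the Foxa1 peak, in a pioneer factor of endoderm, was in the coding sequence of its last exon. Potassium channel genes had an exonic peak in 4 of 98 (4.08%), namely Kcnk3 (5.63), Kcnn4 (5.27), Kcng2 (4.46) and Kcnk12 (4.19), all coding. None of these 4 genes had a promoter peak. Of the core clock genes 2 of 22 had one, Bhlhe40, a repressor of CLOCK-driven transcription, in its 3′ UTR (3.87, 10 fragments) and Nr1d1, which encodes REV-ERBα, in coding exon 2 of 8 (3.52, 9 fragments). The Nr1d1 peak had a −log10 q of 1.86 and was among the 17 members with a q above 0.01.

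Collagen genes had an exonic peak in 2 of 44, Col15a1 (5.98) and Col1a1 (4.29), the latter over a 54-bp exon, the shortest that held a member. Smooth muscle contractile genes had 1 of 19, in the last coding exon of Smtn, which encodes smoothelin (5.27). The TGF-β and BMP pathway had 1 of 29, in the coding sequence of Inhba, a subunit of activin (7.68, 22 fragments). C2H2 zinc finger genes picked by symbol had 9 of 471 (1.91%), led within that list by Prdm16, Zfp503 (6.56), Zfp697 (5.27) and Klf15 (4.92). Zinc finger genes outside it, such as Sp6 (5.98) and Gfi1 (5.43), also had an exonic peak. Single members were in Pcdh17 of 70 protocadherins (5.63) and Celsr3 of 130 adhesion and other G protein-coupled receptors picked by symbol (4.81). That list does not hold every such receptor, and Drd4, Npffr1 and Npsr1, outside it, also had an exonic peak. Smyd4 was the 1 of 65 histone methyltransferase and demethylase genes. No exonic peak lay in 47 ADAMTS and MMP proteases, 103 histone genes, 30 semaphorins and plexins or 15 cofactors and corepressors of PRDM16. These lists hold few genes, and the counts are descriptions.

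A single exonic peak overlapped a peak of the vector library. It lay at chr4:145537613-145537885 in the last coding exon of Zfp990, a zinc finger gene of a multigene cluster, with 33 fragments over a background of 14.1 and a fold enrichment of 2.25, and the vector peak had 2.94. In this member 92.5% of the summit window was repeat-masked. Zfp600 and Zfp987 of the same cluster had members with backgrounds of 8.16 and 4.45 and fold enrichments of 2.62 and 3.12, in windows that were 77.6% and 98.5% repeat-masked. The highest background of all members, 18.5, was at chrX:169989365-169989724 in the 3′ UTR of Mid1, a gene that spans the pseudoautosomal boundary, with 43 fragments and a fold enrichment of 2.25. The peaks in Mid1, Zfp990 and Zfp600 had the 3 lowest fold enrichments of the 293. Since these sequences have near-identical copies, which copy the fragments came from is uncertain.

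To see how the host genes behaved in the knockout, their TPM (transcripts per 1e+06, as deposited) were taken from the 3 control and 3 Prdm16SMKO aortas. Of the 277 host genes 274 were in the expression table, and 202 had a mean TPM of at least 0.5 and were tested. The peaks and the expression come from different cell types. Prdm16 was at 56.1, 47.6 and 40.3 TPM in the controls and at 23.3, 33.3 and 23.4 TPM in the Prdm16SMKO aortas, without overlap, a log2 fold change of −0.85 ± 0.18 (SE) with an adjusted p of 0.0725 in limma with Benjamini-Hochberg adjustment over 15668 genes. In bulk tissue, fewer cells of a type and less RNA per cell cannot be told apart. Summed markers of smooth muscle were at 20792 to 24248 TPM in controls and 13889 to 17933 in Prdm16SMKO aortas, with 0 of 8 markers called in limma after adjustment and 5 with an unadjusted p under 0.05. Fibroblast markers summed to 2160 to 2896 and 1648 to 2140 TPM with 1 of 8 called (Col3a1), and brown adipocyte markers to 406 to 1623 and 466 to 1157 with 0 of 6 called in limma, adjusted or not. Blood markers summed to 944 to 4620 and 761 to 2625 TPM, and no marker listed was at 0 in all aortas. Their part in the results below was not tested.

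Of the 202 tested host genes 7 passed an adjusted p of 0.05 (3.47%), 4 higher and 3 lower in Prdm16SMKO, against 1.07% of all 15668 genes tested (0.389% higher and 0.683% lower). Unadjusted, 50 host genes had a p under 0.05 (24.8%), against 12.7% of all genes tested, and in 57 (28.2%) the groups did not overlap, against 19% of all. The tested host genes were expressed at a median of 17.7 TPM and all tested genes at 8.68 TPM. The median log2 fold change was −0.09 in the host genes and −0.12 in all genes. With each aorta rescaled by its median ratio, which moved the median of all genes to 0.00, 19 host genes passed, 9 higher and 10 lower, and over all genes 200 were higher and 213 lower in place of 61 and 107. Leaving out single aortas left 2, 1 and 2 host genes without control replicates 1, 2 and 3, and 1, 1 and 4 without Prdm16SMKO replicates 1, 2 and 3. Without a trend of the spread on expression, only Zfp990 passed. With 3 aortas against 3, an exact permutation test of a single gene cannot go below a two-sided p of 0.10. A promoter peak as well was present at 2 of the 7 (Arhgef19 and Bhlhe40). Bhlhe40 is reported by the study as higher among differentially expressed genes with PRDM16 binding at their promoters, and Arhgef19 is not among those.

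Arhgef19, a guanine nucleotide exchange factor with exonic peaks in coding exons 5 and 8 of 18 (14 and 15 fragments), was lower. Its levels were 14.9, 10.1 and 8.61 TPM in the controls and 0.76, 1.95 and 1.3 in the Prdm16SMKO aortas. The lowest control was thus above the highest knockout by a wide margin, with a log2 fold change on the log2(TPM + 0.1) scale of −3.03 ± 0.34 (limma, adjusted p = 0.0052). Cyp26b1, which degrades retinoic acid and had a coding peak in exon 2 of 7 (fold enrichment, 6.33), was at 11.1, 9.53 and 7.24 TPM in controls and 4.14, 4.58 and 2.99 in knockouts (log2 fold change −1.23 ± 0.23, limma adjusted p = 0.0468). 1700020L24Rik had a coding peak with 13 fragments over a background of 3.71 (fold enrichment, 2.97) and was at 14.7, 17.7 and 10.5 TPM against 4.66, 4.56 and 4.03 (log2 fold change −1.64 ± 0.21, limma adjusted p = 0.00836).

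Bhlhe40, with the peak in its 3′ UTR and a promoter peak, was higher, at 13.7, 10.6 and 12 TPM in controls and 27.2, 26.2 and 24.7 in Prdm16SMKO aortas. The knockouts were above every control and close to each other (log2 fold change 1.11 ± 0.14, limma adjusted p = 0.00892). Rassf2, a Ras association domain protein with a coding peak in exon 4 of 11 (fold enrichment, 7.03), was at 3.37, 3.2 and 4 TPM against 8.79, 6.91 and 6.44 (log2 fold change 1.04 ± 0.19, limma adjusted p = 0.047). Mid1 was at 8.64, 7.3 and 6.51 TPM against 18.3, 23.7 and 16.3 (log2 fold change 1.36 ± 0.18, limma adjusted p = 0.0109). Zfp990 was listed at 0 in the 3 controls and at 2.5, 3.02 and 1.73 TPM in the Prdm16SMKO aortas (limma, adjusted p = 0.00998), and its reads may be shared with near copies in the same cluster.

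**Figure D5:**
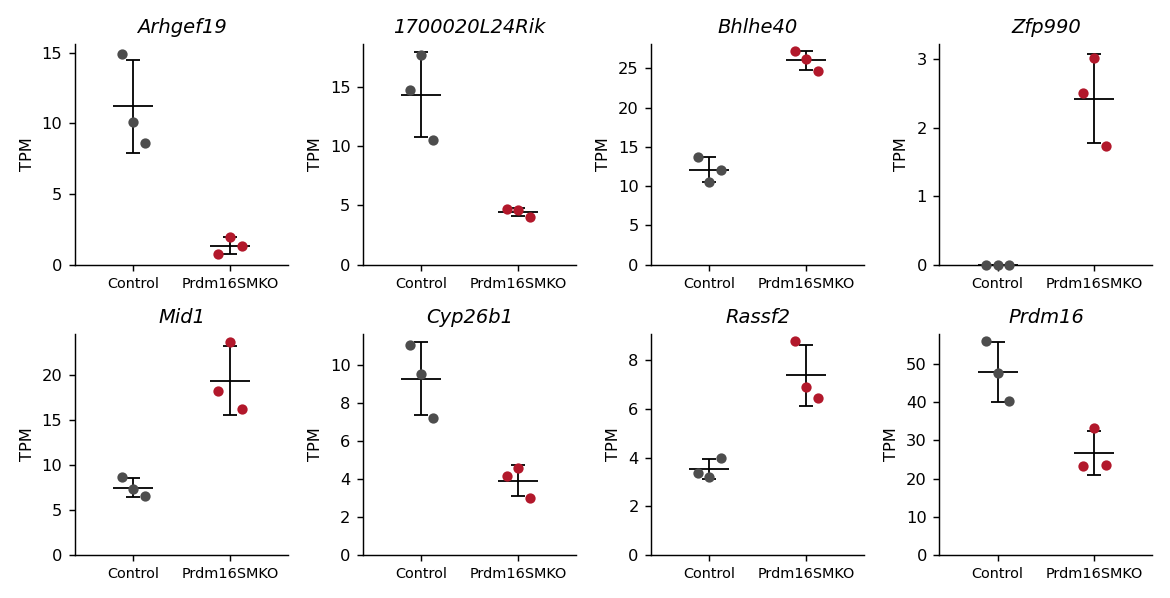
TPM in each thoracic aorta (points) of the 7 host genes past an adjusted p of 0.05 and of Prdm16, with the mean and SD of 3 control and 3 Prdm16SMKO aortas as horizontal and vertical bars. The points of the groups do not overlap in any panel, and Zfp990 is at 0 in every control.

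Called genes had fold enrichments from 2.25 in Mid1 and Zfp990 to 6.33 in Cyp26b1 and 7.03 in Rassf2. Among the host genes of the 10 members of lowest fold enrichment 3 were called in limma, namely Mid1, Zfp990 and 1700020L24Rik (2.97). Of the host genes of the 12 members of highest fold enrichment 0 were called in limma, where 3.47% of all tested host genes were, and 3 had an unadjusted p under 0.05. These were Irak2, at 49.95, 42.3 and 41 TPM in controls and 29.3, 33.6 and 28.8 in knockouts, Synpo, at 225, 156 and 140 against 114, 130 and 109, and Amotl2, at 47.9, 49.99 and 57.2 against 38.8, 45.5 and 25.4. The groups did not overlap in any of these 3 genes, with limma adjusted p-values of 0.108, 0.247 and 0.318. The study itself reports Synpo and Amotl2 as lower among differentially expressed genes with PRDM16 binding at their promoters. Irak2, without a promoter peak here, is not among those. The called genes Zfp990 and Mid1 had the 2 highest backgrounds of all members. Arhgef19 and Zfp990 lie on chromosome 4, 13.2 and 8.95 Mb from Prdm16. Of the tested genes within 20 Mb of Prdm16, a window chosen after these values were seen, 20 of 229 were called (8.73%), against 130 of 13046 others (0.996%). Among the host genes the counts were 2 of 7 within that window and 5 of 195 outside it (2.56%). The part of this position in the calls was not tested.

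Next in order of p were Zfp503, a zinc finger repressor with a coding peak (6.67, 6.76 and 6.28 TPM against 11.6, 11.02 and 10.4), the forkhead factor Foxo6 (6.24, 5.68 and 4.35 against 2.56, 2.71 and 2.16), Mylk2, a myosin light chain kinase (30.6, 23.2 and 18.8 against 11.4, 13.5 and 8.9), and Edn1 (8.09, 5.45 and 5.45 against 2.69, 1.67 and 0.85). None of the 4 passed in limma, with an adjusted p of 0.0522 for Zfp503 and 0.0567 for the others, and in none did the groups overlap. Each passed under some alternative: Zfp503, Mylk2 and Edn1 with a mean TPM of at least 1, Mylk2 and Edn1 with the replicate number as a block, and Zfp503, Foxo6 and Mylk2, as well as Prdm16, with rescaling. The study itself reports Zfp503 as higher and Foxo6 as lower among differentially expressed genes with PRDM16 binding at their promoters. Mylk2 and Edn1, without a promoter peak here, are not among those. Among genes of the lists above, Nr1d1 was at 193, 150 and 137 TPM in controls and 182, 192 and 135 in knockouts, Smtn at 1072, 839 and 782 against 665, 860 and 601, and Col1a1 at 518, 363 and 401 against 365, 269 and 252. In each of these 3 genes the groups overlapped. Inhba was at 53.3, 37.8 and 40.95 TPM in controls and 29.9, 32.7 and 36.8 in knockouts, without overlap and without passing the test. Of the genes without a promoter peak 57.3% were expressed highly enough in aorta to be tested, against 89.6% of those with one. Foxa1 and Prdm13 were listed at 0 in every aorta, and Lhx3 and Srrm3 at no more than 0.05 and 0.09 TPM.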

How the data were processed

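The members and gene lists were chosen with earlier results of these data known. For ChIP-Seq the authors mapped reads to GRCm38 with Bowtie2 2.3.4.1 and called peaks with MACS2 in each library at a stated q threshold of 0.01, with the genome size preset for human. Which library served as control is not given in the sources used here. The authors deposited for each peak its position, fold enrichment at the summit (a ratio), −log10 p and −log10 q. Although that threshold is stated, 17 members (5.80%) had a higher q, and they were kept. The IgG libraries were not analysed here.

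Peaks were placed by their centre with the NCBI RefSeq annotation of GRCm38.p6 (NM and NR transcripts), and where several transcripts overlapped, coding sequence took priority. Fragments at the summit were solved from fold enrichment and −log10 p. Motifs on both strands and composition were read within 100 bp of the summit, and repeats from soft-masking. The same was done for all curated exons whose middle was more than 2000 bp from a TSS.

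For RNA-Seq the authors deposited 1 TPM value per gene and aorta, and the processing notes name STAR 2.7.8a and RSEM 1.3.3. TPM keeps no depth, so the depth of these libraries is unknown here and no counting interval was given. Host genes were matched by Entrez identifier, then symbol. limma 3.58.1 in R 4.3.3 (lmFit and eBayes with trend) took log2(TPM + 0.1) of the genes that averaged 0.5 TPM or more, with Benjamini-Hochberg adjustment and a threshold of 0.05. It was tested on simulated data. The labels do not say more of the aortas than a number per group, so p-values measure the spread between these samples.

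Named were the 12 members of highest fold enrichment, genes with 2 members, host genes called or, up to 10, lowest in adjusted p, members of the lists, members overlapping a vector peak, and the 3 peaks on either side of each limit. Other genes named were chosen after their values were seen. Alternatives changed the point that places a peak, the q limit, the distance and set of TSS, the length limit, the exonic overlap, the pseudocount, the TPM filter, the scaling, the trend and the samples.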

Additional observations from a re-analysis of the deposited data

How the results depend on the processing

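For the peaks, the median fold enrichment (4.92 to 5.27) and the median GC content (60.2% to 62.2%) stayed within counting error under every alternative run. The number of peaks was 293 and moved by over 1.5 times with a TSS distance of more than 5000 bp (188) and with GENCODE vM21 TSS (181), an alternative chosen after seeing the data, which also lowered the coding share from 73.0% to 64.6%. With a TSS distance of more than 1000 bp the number was 438, just short of a change by 1.5 times. The share with a promoter peak at the gene was 64.8% with a distance of more than 1000 bp. The CpG-rich share was 42.0%, and it was 50.2% with a distance of more than 1000 bp, above its interval, and 37.0% to 45.9% under the others. No other alternative changed the number of peaks by over 1.5 times, or the coding share or the share with a promoter peak beyond its interval.

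In the aortas, the 7 called host genes became 11 with a mean TPM of at least 1, 19 with median-ratio rescaling and 1 without a trend in eBayes, and between 1 and 4 when an aorta was left out. Over all genes the 168 calls became 110 with no filter, 413 with rescaling, 48 without a trend, and between 29 and 92 when an aorta was left out. The cause of these shifts was not tested. No called host gene changed its direction. Same-numbered aortas did not deviate together (correlations −0.02, −0.07 and −0.01). The labels give them only a common number, and whether they share a batch or preparation was not tested. With the replicate number as a block 8 host genes and 184 genes were called, and Rassf2 was not among them, while Edn1 and Mylk2 were. Peak lists of 1 library allowed no replicate check, and at a median of 14 fragments neighbours in the order of the peaks lie within counting error.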
